A study of Homo sapiens with 24 samples.

Results

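Polyamine metabolism was followed through 10 genes out of the 60675 genes counted in each library. The rule names them for their place in the pathway and uses no measured value, though earlier results of these data were known when it was set. ODC1, AMD1, SRM and SMS encode the synthesis enzymes, AZIN1, OAZ1 and OAZ2 encode proteins that control ornithine decarboxylase, and SAT1, SMOX and PAOX encode catabolic enzymes. All 10 passed the filter on low counts in every fit. The data are RNA-seq read counts from 24 libraries of 2 prostate cancer cell lines, LNCaP:C4-2 (labelled LNCaP:C42), a castration-resistant derivative of LNCaP, and 22Rv1, a line derived from a human xenograft that relapsed after castration. Each line was transfected with a pool of siRNAs against METTL3 (siMETTL3), which encodes the catalytic subunit of the main mRNA N6-methyladenosine methyltransferase, or with a non-targeting pool (siSCR). At 48 h a second transfection was given together with 1 nM R1881, a synthetic androgen, or ethanol vehicle for 72 h, with 3 libraries for each of the 8 conditions. All cells were in medium with charcoal-stripped serum, which is depleted of androgens, so the vehicle libraries are androgen-deprived cells. Each line is a single established line, and the siRNA lowered METTL3 without removing it.

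Polyamines are small positively charged molecules that bind nucleic acids and are needed for growth and translation. Ornithine decarboxylase (ODC1) makes putrescine from ornithine, and S-adenosylmethionine decarboxylase (AMD1) makes the aminopropyl donor. Spermidine synthase (SRM) and spermine synthase (SMS) then add aminopropyl groups in turn. Antizymes (OAZ1, OAZ2) bind ornithine decarboxylase and send it to the proteasome, and the antizyme inhibitor AZIN1, a relative of the enzyme without its activity, competes for them. SAT1 acetylates spermidine and spermine for export or for oxidation by PAOX, and SMOX oxidises spermine directly. Prostate luminal epithelium is known for secreting large amounts of spermine, and AMD1 draws on S-adenosylmethionine, which is also the methyl donor of METTL3. Antizyme is controlled mainly at translation, so transcript levels of this circuit are not protein levels.

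Library totals ranged from 15716224 to 21306019 counts, and 3 counts corresponded to between 0.141 and 0.191 CPM, a count scaled to a common library total. METTL3 was lower with siMETTL3 in every library of both lines. Its log2 fold change was -0.61 ± 0.11 (SE, adjusted p = 0.0127) with vehicle and -0.57 ± 0.11 (SE, adjusted p = 0.0256) with R1881 in LNCaP:C4-2, and -0.89 ± 0.08 (SE, adjusted p = 1.48e-06) and -1.18 ± 0.08 (SE, adjusted p = 1.29e-08) in 22Rv1. FKBP5, a gene known to be induced by androgen, rose with R1881 by 3.49 under siSCR and 3.44 under siMETTL3 on the log2 scale in LNCaP:C4-2, and in 22Rv1 the values were 3.33 and 3.21. The luminal markers KRT8, KRT18 and EPCAM were at 86.6 CPM or more in every library. HOXB13 and FOLH1 were lower in 22Rv1, where FOLH1 began at 13.4 CPM. KLK3 stayed between 6.13 and 10.3 CPM in 22Rv1. Of the basal, stromal, leukocyte and endothelial markers, 10 of 12 never passed 28 counts. The exceptions were COL1A1, at 15 to 71.9 CPM, and ACTA2, at up to 50 counts in 22Rv1. Mitochondrial counts took 3.93 to 9.73% of a library, and in 22Rv1 the share was lower with R1881 than with vehicle, at 4.96 to 5.28% against 6.12 to 6.89% with siSCR and 3.93 to 4.24% against 5.04 to 7.45% with siMETTL3. With R1881 it was also lower with siMETTL3 than with siSCR in both lines, with no overlap, at 6.46 to 7.05% against 7.08 to 9.73% in LNCaP:C4-2. Its part in the results was not tested.

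In 5 groups, 1 library stood apart: its counts differed from both others by more than 3 times the chi-square per gene of the remaining pair. These were replicate 3 of siSCR vehicle, replicate 1 of siSCR R1881 and replicate 1 of siMETTL3 vehicle in LNCaP:C4-2, and replicate 3 of siSCR vehicle and replicate 1 of siMETTL3 vehicle in 22Rv1. In LNCaP:C4-2, replicate 1 of siSCR R1881 had 7.08% mitochondrial counts against 9.73 and 9.69% in the others, and replicate 1 of siMETTL3 vehicle had 9.60% against 6.89 and 7.03%. Results were therefore also computed without these libraries, a choice made after seeing the data, and removing the most distant libraries narrows the spread by construction. Nothing in the sources says that replicates were separate cultures, so p-values measure the spread between these libraries only. In bulk RNA, a change in a share of the cells and a change within every cell cannot be told apart.

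Transcript levels were compared between genes as CPM per kilobase of exon (CPM/kb), since genes differ in length. The length counts all annotated exonic bases of a gene, 3436 for OAZ1 and 2968 for ODC1, and not those of the transcript in use. The order of genes and the size of the ratio of ODC1 to OAZ1 depend on these lengths, and other lengths were not tested. Changes of a gene or of this ratio between conditions do not depend on them. In LNCaP:C4-2 with siSCR and vehicle, OAZ1 was highest at 217 CPM/kb and ODC1 second at 166. SRM followed at 99.7, and AMD1 (64.8) and SMS (58.9) overlapped across libraries. AZIN1 (21.5) and OAZ2 (19.1) also overlapped, ahead of SAT1 at 8.58, PAOX at 4.31 and SMOX at 1.00 CPM/kb. With R1881 the order changed at the top and in the middle. ODC1 led at 433 CPM/kb, above OAZ1 at 240.0, and SAT1 stood at 67.8, above AZIN1 and OAZ2. In 22Rv1 ODC1 was already above OAZ1 with vehicle (137 and 115 CPM/kb) and stayed so with R1881 (187 and 115). SAT1, AZIN1 and SMS, at 34.5, 32.04 and 29.1 CPM/kb, lay close together with vehicle, each overlapping its neighbour in that order. SMOX and PAOX were the lowest members in both lines.

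**Figure D1:**
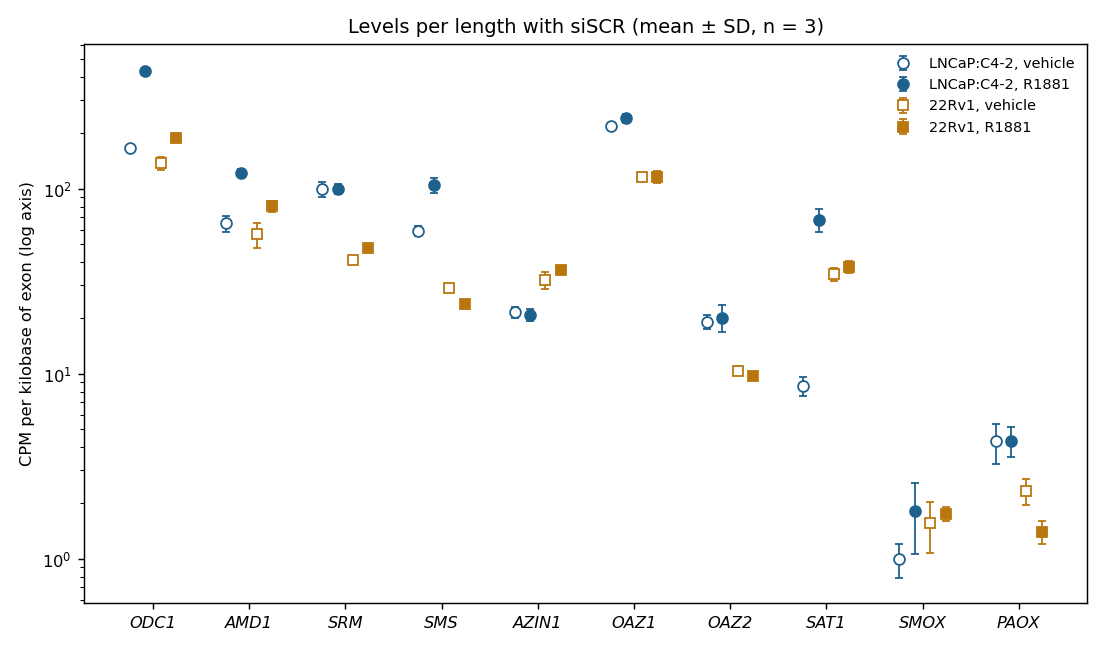
Mean CPM per kilobase of exon (log axis) of the 10 genes with siSCR, in LNCaP:C4-2 (circles) and 22Rv1 (squares), with vehicle (open) and R1881 (filled); error bars are the SD over 3 libraries. In LNCaP:C4-2, ODC1 passes OAZ1 and SAT1 passes AZIN1 and OAZ2 with R1881, while in 22Rv1 ODC1 lies above OAZ1 with both. The order of genes depends on the exon lengths used.

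R1881 raised transcripts at both ends of the pathway in LNCaP:C4-2. With siSCR, the synthesis genes ODC1, AMD1 and SMS and the catabolic genes SAT1 and SMOX were higher, and none of the 10 was lower. These 5 of 10 compare with 24.8% of all 16435 genes tested that changed, where a gene counts as changed at an adjusted p under 0.05 in the quasi-likelihood test of edgeR. All 5 also passed 1.5-fold, as did 15.1% of all genes. The median log2 fold change of the members was 0.47, against -0.03 over all genes, which became -0.15 with scaling by total counts alone. The libraries of 5 members did not overlap between the groups, against 41.4% of all genes, with OAZ1 among these and SMOX not. The 5 members that did not change, SRM, AZIN1, OAZ1, OAZ2 and PAOX, had log2 fold changes between -0.05 and 0.14.

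ODC1 (chr2:10439968-10448504, GRCh38, minus strand) stood at 474, 496 and 506 CPM in the siSCR vehicle libraries of LNCaP:C4-2 and at 1274, 1271 and 1311 CPM with R1881. The groups did not overlap, and the log2 fold change was 1.38 ± 0.10 (SE, adjusted p = 9.33e-08), or 2.60-fold. With siMETTL3 it stood at 369, 462 and 480.3 CPM with vehicle and 1006, 886 and 1051 CPM with R1881. The response was again clear of the spread, at 1.18 ± 0.10 (SE, adjusted p = 6.53e-07).

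AMD1 (chr6:110814621-110895713, plus strand) rose from 476, 419 and 509 CPM to 869, 836 and 922 CPM with siSCR, a log2 fold change of 0.90 ± 0.14 (SE, adjusted p = 0.000224). With siMETTL3 and vehicle the libraries were at 591, 387 and 380.5 CPM, the first of them being the library that stood apart. All 3 were below the R1881 libraries at 823, 794 and 724 CPM, and the log2 fold change was 0.80 ± 0.14 (SE, adjusted p = 0.000783), or 1.03 without the libraries that stood apart.

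SMS (chrX:21940573-21994835, plus strand) rose from 124, 121 and 136 CPM to 202, 244 and 228 CPM with siSCR, a log2 fold change of 0.81 ± 0.10 (SE, adjusted p = 1.37e-05). With siMETTL3 it went from 124, 115 and 123 CPM to 161, 164 and 175 CPM, a log2 fold change of 0.48 ± 0.10 (SE, adjusted p = 0.00212). Neither pair of groups overlapped. SRM (chr1:11054584-11060024, minus strand), the spermidine synthase between ODC1 and SMS in the pathway, stood at 197, 169 and 202 CPM with vehicle and 176, 191 and 200.3 CPM with R1881 under siSCR, with overlapping libraries.

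**Figure D2:**
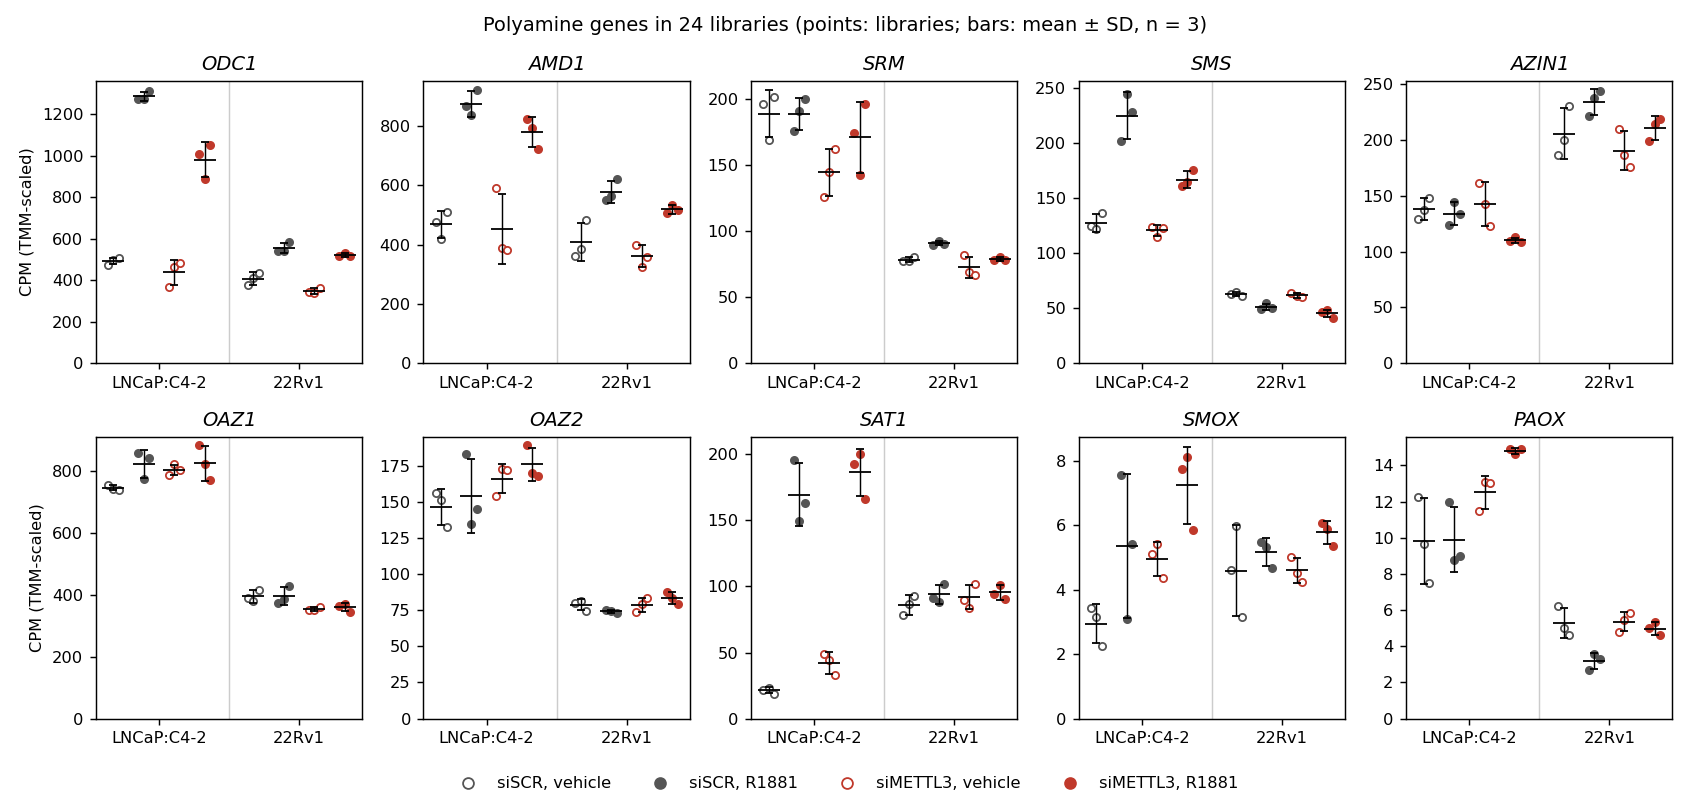
CPM (scaled by TMM factors over the 24 libraries) of each gene in each library, with LNCaP:C4-2 left and 22Rv1 right in each panel; grey is siSCR, red siMETTL3, open vehicle and filled R1881, and bars give the mean ± SD of 3 libraries. In LNCaP:C4-2 all R1881 libraries lie above the vehicle libraries of the same siRNA for ODC1, AMD1, SMS and SAT1. In 22Rv1 SMS lies below vehicle with R1881, and SMOX and PAOX have the lowest CPM of the members.

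The largest response among the members was that of SAT1 (chrX:23783173-23786226, plus strand). It stood at 22.0, 23.5 and 18.8 CPM with vehicle and 196, 149.8 and 163 CPM with R1881 under siSCR, 7.85-fold higher, with a log2 fold change of 2.97 ± 0.15 (SE, adjusted p = 1.18e-09). With siMETTL3 it stood at 48.9, 44.6 and 33 CPM and 192, 200.3 and 166 CPM, a log2 fold change of 2.16 ± 0.14 (SE, adjusted p = 3.64e-08). Both responses exceeded the spread, and the R1881 levels of the 2 siRNA groups overlapped.

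SMOX (chr20:4120980-4187747, plus strand) was measured at 3.42, 3.17 and 2.26 CPM with vehicle and 7.58, 3.10 and 5.43 CPM with R1881 under siSCR. The groups overlapped, since the second R1881 library lay within the vehicle range. Its log2 fold change of 0.86 ± 0.27 (SE, adjusted p = 0.0296) passed the threshold in 2 of the 6 fits that each left out a library, without replicate 1 of siSCR vehicle or replicate 2 of siSCR R1881. It was 0.40 ± 0.26 (SE, adjusted p = 0.231) once the libraries that stood apart were removed. With siMETTL3 it was at 5.10, 5.41 and 4.36 CPM and 7.75, 8.11 and 5.87 CPM, a log2 fold change of 0.56 ± 0.25 (SE, adjusted p = 0.153).

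With siMETTL3 in LNCaP:C4-2, 5 of 10 members changed, 4 higher and 1 lower, against 16.6% of all genes. The higher ones were ODC1, AMD1, SMS and SAT1, and 3 of the 5 passed 1.5-fold, against 10.6% of all genes. The libraries of 7 members did not overlap between the groups, against 33.5% of all genes. The lower one was AZIN1, at 162, 143 and 123 CPM with vehicle and 109, 113 and 109 CPM with R1881. Its log2 fold change of -0.36 ± 0.11 (SE, adjusted p = 0.0307) passed in 1 of the 6 fits that each left out a library, without replicate 3 of siMETTL3 vehicle. Removing the libraries that stood apart gave -0.26 ± 0.07 (SE, adjusted p = 0.00799).

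Neither antizyme transcript responded to R1881 by the test in LNCaP:C4-2. OAZ1 (chr19:2269509-2273490, plus strand) was at 755, 744 and 739 CPM with vehicle and 858, 773 and 843 CPM with R1881 under siSCR, a log2 fold change of 0.14 ± 0.08 (SE, adjusted p = 0.218) with groups that did not overlap. OAZ2 (chr15:64687573-64703281, minus strand) was at 147 ± 12.6 (SD, n = 3) and 154 ± 25.7 CPM. The ratio of ODC1 to OAZ1, each per kilobase of exon, went from 0.763 ± 0.0341 to 1.81 ± 0.0923 (SD, n = 3) with siSCR and from 0.628 ± 0.0782 to 1.38 ± 0.174 with siMETTL3, with no overlap between vehicle and R1881 libraries.

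ODC1 and AMD1 also rose with R1881 in 22Rv1, while SMS fell. With siSCR, 5 of 10 members changed, against 33% of all 17865 genes tested. ODC1, AMD1 and SRM were higher and SMS and PAOX were lower. Of these, 1 passed 1.5-fold (PAOX), against 13.8% of all genes, and these 5 were also the members whose libraries did not overlap, against 43.5% of all genes. With siMETTL3, 3 of 10 changed, against 33.1% of all genes, with ODC1 and AMD1 higher and SMS lower. None of these reached 1.5-fold, against 13.5% of all genes, and the libraries of 4 members did not overlap, against 46.7% of all genes. The median log2 fold change of the members was 0.14 with siSCR and 0.08 with siMETTL3, and over all genes it was 0.002 and 0.003.

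ODC1 in 22Rv1 stood at 375, 409 and 436 CPM with vehicle and 541, 539.7 and 584 CPM with R1881 under siSCR, a log2 fold change of 0.44 ± 0.07 (SE, adjusted p = 2.35e-05). With siMETTL3 it stood at 343, 336 and 362 CPM and 516, 531 and 516 CPM, a log2 fold change of 0.56 ± 0.07 (SE, adjusted p = 1.03e-06). The ratio of ODC1 to OAZ1 per kilobase went from 1.19 ± 0.0682 to 1.63 ± 0.0550 with siSCR and from 1.13 ± 0.0254 to 1.68 ± 0.0454 with siMETTL3 (SD, n = 3). AMD1 rose by 0.50 ± 0.09 (SE, adjusted p = 0.000173) and 0.50 ± 0.09 (SE, adjusted p = 0.000138) on the log2 scale, and neither pair of groups overlapped.

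SMS moved in the opposite direction to LNCaP:C4-2. It was at 62.6, 64.8 and 61.3 CPM with vehicle and 49.3, 54.1 and 50 CPM with R1881 under siSCR, a log2 fold change of -0.31 ± 0.08 (SE, adjusted p = 0.00425). With siMETTL3 it went from 63.8, 61.4 and 59.7 CPM to 46.2, 47.8 and 41.3 CPM, a log2 fold change of -0.47 ± 0.08 (SE, adjusted p = 6.65e-05). Both falls kept their call in every fit that left out a library.

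PAOX (chr10:133379234-133391694, plus strand) was at 6.23, 5.03 and 4.63 CPM with vehicle and 2.69, 3.56 and 3.29 CPM with R1881 under siSCR, a log2 fold change of -0.74 ± 0.17 (SE, adjusted p = 0.00213). With siMETTL3 the groups overlapped, at 4.80, 5.45 and 5.84 CPM and 4.99, 5.36 and 4.60 CPM. SRM was at 77.6, 77.0 and 80.7 CPM and 89.8, 92.5 and 89.9 CPM under siSCR, and its log2 fold change of 0.20 ± 0.07 (SE, adjusted p = 0.0405) passed in 1 of the 6 fits that each left out a library, without replicate 3 of siSCR vehicle. SAT1 was at 78.4, 86.9 and 92.9 CPM and 91.4, 88.5 and 102 CPM, a log2 fold change of 0.12 ± 0.09 (SE, adjusted p = 0.301).

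With the libraries that stood apart removed, 7 of 10 members changed with R1881 under siSCR in 22Rv1, against 45.5% of all genes. The additional ones were AZIN1, at 0.26 ± 0.06 (SE, adjusted p = 0.000158), and SAT1, at 0.17 ± 0.07 (SE, adjusted p = 0.0443). Under siMETTL3, 5 of 10 changed, against 39.9% of all genes, the additional ones being SRM, at 0.19 ± 0.06 (SE, adjusted p = 0.0137), and AZIN1, at 0.19 ± 0.06 (SE, adjusted p = 0.00645). In LNCaP:C4-2, 4 of 10 changed with siSCR, against 41.9% of all genes, and 5 of 10 with siMETTL3, against 28.8%.

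**Figure D3:**
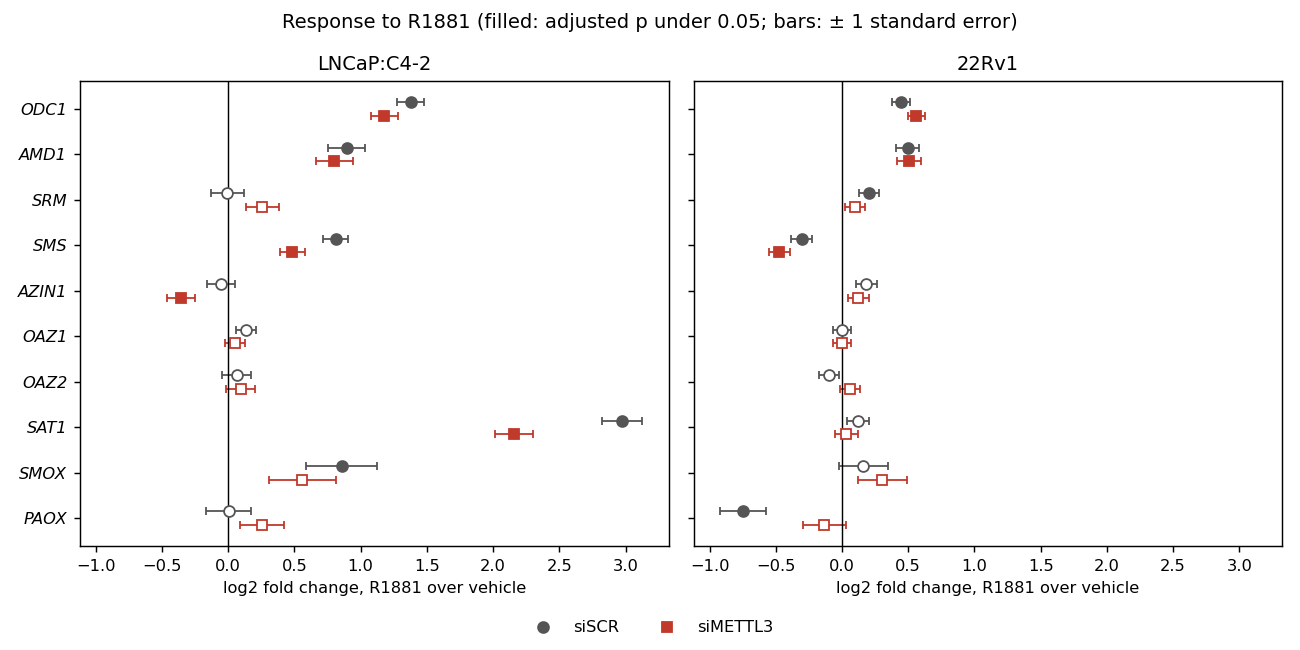
Log2 fold change of R1881 over vehicle for each gene with siSCR (circles) and siMETTL3 (squares), in LNCaP:C4-2 (left) and 22Rv1 (right); bars are ± 1 standard error and filled symbols have an adjusted p under 0.05. SAT1 is farthest to the right in LNCaP:C4-2 and near 0 in 22Rv1, and SMS is right of 0 in LNCaP:C4-2 and left of it in 22Rv1.

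The difference between the lines in the R1881 response was tested directly in a fit of all 24 libraries. Under siSCR, 4 of 10 members differed, against 16.8% of all 19437 genes tested, and each was lower in 22Rv1 relative to LNCaP:C4-2. The difference was -2.86 ± 0.18 (SE, adjusted p = 4.27e-12) for SAT1, -1.12 ± 0.11 (SE, adjusted p = 5.11e-08) for SMS, -0.94 ± 0.12 (SE, adjusted p = 2.06e-06) for ODC1 and -0.75 ± 0.24 (SE, adjusted p = 0.0325) for PAOX on the log2 scale. The PAOX difference passed in 7 of the 12 fits that each left out a library and was lost without replicate 2 or 3 of siSCR vehicle in LNCaP:C4-2 or replicate 1 of siSCR R1881 in LNCaP:C4-2 or replicate 1 of siSCR vehicle in 22Rv1 or replicate 1 of siSCR R1881 in 22Rv1. It was also lost with no filter on low counts (adjusted p = 0.0507) and with only the libraries compared (adjusted p = 0.0728). All 4 were also past 1.5-fold, against 12.4% of all genes. The AMD1 difference was -0.40 ± 0.18 (SE, adjusted p = 0.126), and without the libraries that stood apart it was -0.43 ± 0.09 (SE, adjusted p = 0.000564).

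The lines also differed in level. With siSCR and vehicle, 9 of 10 members differed, 3 higher and 6 lower in 22Rv1, against 73.9% of all genes. Of these, 7 passed 1.5-fold, against 59.2% of all genes, and the libraries of 8 members did not overlap, against 75.4%. SAT1 was 4.01-fold higher in 22Rv1 (86.1 ± 7.31 against 21.4 ± 2.41 CPM, SD, n = 3), and AZIN1 was higher by 0.58 ± 0.10 (SE, adjusted p = 6.64e-06) on the log2 scale. SRM, at -1.27 ± 0.10 (SE, adjusted p = 2.84e-11), SMS, at -1.02 ± 0.08 (SE, adjusted p = 1.42e-11), OAZ1, at -0.92 ± 0.07 (SE, adjusted p = 7.01e-12), OAZ2, at -0.89 ± 0.10 (SE, adjusted p = 4.23e-09), and PAOX, at -0.89 ± 0.16 (SE, adjusted p = 2.85e-05), were lower. ODC1, at -0.27 ± 0.08 (SE, adjusted p = 0.00522), and SMOX, at 0.64 ± 0.25 (SE, adjusted p = 0.0239), lost their calls in some fits, SMOX without replicate 3 of siSCR vehicle in LNCaP:C4-2 or replicate 2 of siSCR vehicle in 22Rv1. For ODC1 this was so without replicate 1 of siSCR vehicle in 22Rv1. Its call was also lost with scaling by total counts alone, where the difference was -0.13. With at least 10 counts required in every library it was -0.15 (adjusted p = 0.1), again without a call.

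With R1881, 9 of 10 members differed, 1 higher and 8 lower in 22Rv1, against 75% of all genes. All 9 passed 1.5-fold and had libraries that did not overlap, against 60.1% and 77.3% of all genes. SAT1 was then lower in 22Rv1, at -0.85 ± 0.12 (SE, adjusted p = 5.96e-07), so that its order between the lines was the opposite of that with vehicle. SMS (-2.13), PAOX (-1.64), ODC1 (-1.21), SRM (-1.06), OAZ1 (-1.06), OAZ2 (-1.06) and AMD1 (-0.60) were lower on the log2 scale, and AZIN1 was higher by 0.81. SMOX, at -0.06 ± 0.23 (SE, adjusted p = 0.816), did not pass the test. Comparisons between lines depend on scaling: the median log2 difference over all genes with R1881 was 0.09 with TMM factors and 0.29 with total counts alone.

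In the fits of all 12 libraries of a line, METTL3 knockdown moved few of these transcripts past the test. With R1881 the count depended on the fit. Without the libraries that stood apart it was 7 of 10 in each line, against 42.7% of all genes in LNCaP:C4-2 and 31.9% in 22Rv1. In LNCaP:C4-2 with vehicle, 1 of 10 members changed, against 1.56% of all genes, and it also passed 1.5-fold, against 1.2%. These comparisons use the same vehicle and R1881 libraries as those of the R1881 response and are not independent of them. The member was SAT1, at 22.0, 23.5 and 18.8 CPM with siSCR and 48.9, 44.6 and 33 CPM with siMETTL3, 1.94-fold higher, with a log2 fold change of 0.96 ± 0.15 (SE, adjusted p = 0.00977). The libraries did not overlap, as for 4 members in all and 22% of all genes. The call was lost without replicate 1 or 3 of siSCR vehicle or replicate 2 of siMETTL3 vehicle, with log2 fold changes from 0.84 to 1.11 over the 6 fits that each left out a library. Removing the libraries that stood apart gave 0.76 ± 0.12 (SE, adjusted p = 0.0013), with 8.88% of all genes called. SRM was at 126, 145 and 162 CPM with siMETTL3, below all siSCR libraries, with a log2 fold change of -0.41 ± 0.13 (SE, adjusted p = 0.119).

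With R1881 in LNCaP:C4-2, 1 of 10 members changed, against 0.937% of all genes, and none passed 1.5-fold as well, against 0.7%. SMS was at 202, 244 and 228 CPM with siSCR and 161, 164 and 175 CPM with siMETTL3, a log2 fold change of -0.42 ± 0.09 (SE, adjusted p = 0.0484) that passed in 1 of the 6 fits that each left out a library, without replicate 1 of siSCR R1881. ODC1 was at 1274, 1271 and 1311 CPM with siSCR and 1006, 886 and 1051 CPM with siMETTL3, a log2 fold change of -0.38 ± 0.10 (SE, adjusted p = 0.065). The ODC1 groups did not overlap, and neither did those of SMS.

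PAOX, at 11.96, 8.78 and 8.97 CPM with siSCR and 14.9, 14.6 and 14.9 CPM with siMETTL3, had a log2 fold change of 0.59 ± 0.17 (SE, adjusted p = 0.0715). The groups of 5 members did not overlap in this comparison, against 33.4% of all genes. The count of members that changed depended on single libraries. It was 6 without replicate 1 of siSCR R1881 and 0 without any of the other 5, and the share of all genes in these fits is not given. That replicate had the lowest mitochondrial share of its group, and its part was not tested. Without all libraries that stood apart 7 members passed, against 42.7% of all genes. ODC1 (-0.41), SMS (-0.52), AZIN1 (-0.35) and AMD1 (-0.19) were then lower, and PAOX (0.72), SMOX (0.73) and OAZ2 (0.31) higher, as log2 fold changes.

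In 22Rv1 with vehicle, 0 of 10 members changed with siMETTL3 in edgeR, against 0.56% of all genes. The libraries of 2 members did not overlap, against 13.1% of all genes. DESeq2 also called 0, against 223 of all 17865 genes. In edgeR 2 members, ODC1 and OAZ1, had an unadjusted p under 0.05, against 2604 of all 17865 genes. ODC1 was at 375, 409 and 436 CPM with siSCR and 343, 336 and 362 CPM with siMETTL3, and its log2 fold change was -0.23 ± 0.07 (SE, adjusted p = 0.14). SAT1, the member that rose with knockdown in LNCaP:C4-2, was at 78.4, 86.9 and 92.9 CPM and 89.9, 83.8 and 102 CPM, with overlapping libraries. The difference between the lines in this SAT1 effect was -0.88 ± 0.18 (SE, adjusted p = 0.0185) on the log2 scale, the single member that differed, against 0.458% of all genes. It exceeded 1.5-fold, as did 0.432% of all genes. The call was lost without replicate 1 or 3 of siSCR vehicle in LNCaP:C4-2 or replicate 2 of siMETTL3 vehicle in LNCaP:C4-2 or replicate 2 of siSCR vehicle in 22Rv1 or replicate 2 of siMETTL3 vehicle in 22Rv1. Once the libraries that stood apart were removed it was -0.59 ± 0.15 (SE, adjusted p = 0.0385).

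With R1881 in 22Rv1, 1 of 10 members changed, against 16.2% of all genes. PAOX was at 2.69, 3.56 and 3.29 CPM with siSCR and 4.99, 5.36 and 4.60 CPM with siMETTL3, a log2 fold change of 0.63 ± 0.18 (SE, adjusted p = 0.02) that passed in 2 of the 6 fits that each left out a library, without replicate 2 of siSCR R1881 or replicate 3 of siMETTL3 R1881. It exceeded 1.5-fold, as did 3.29% of all genes. PAOX was thus higher with siMETTL3 in every R1881 library of both lines, by 0.59 in LNCaP:C4-2, where it missed the threshold, and 0.63 in 22Rv1. The mitochondrial share was lower with siMETTL3 in those same libraries of both lines, as given above, and its part in the knockdown effects with R1881 was not tested. The groups of 8 of 10 members did not overlap in 22Rv1 with R1881, against 42.5% of all genes, with log2 fold changes of -0.21 for SRM, -0.20 for SMS, -0.17 for AMD1, -0.17 for AZIN1, -0.15 for OAZ1, -0.11 for ODC1 and 0.16 for OAZ2. When the libraries that stood apart were removed, none of which is in the R1881 groups of 22Rv1, the pooled spread was smaller and 7 of 10 passed, against 31.9% of all genes.

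The effect of knockdown with R1881 differed between the lines for 0 of 10 members in edgeR, against 0.0926% of all genes. DESeq2 also called 0, against 88 of all 19437 genes. In edgeR 2 members, ODC1 and SMS, had an unadjusted p under 0.05, against 1469 of all 19437 genes. None passed with the 1.5-fold rule, against 0.0875% of all genes. With those libraries removed, both differed, by 0.32 ± 0.08 (SE, adjusted p = 0.0148) and 0.33 ± 0.09 (SE, adjusted p = 0.0221) on the log2 scale, against 6.11% of all genes.

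**Figure D4:**
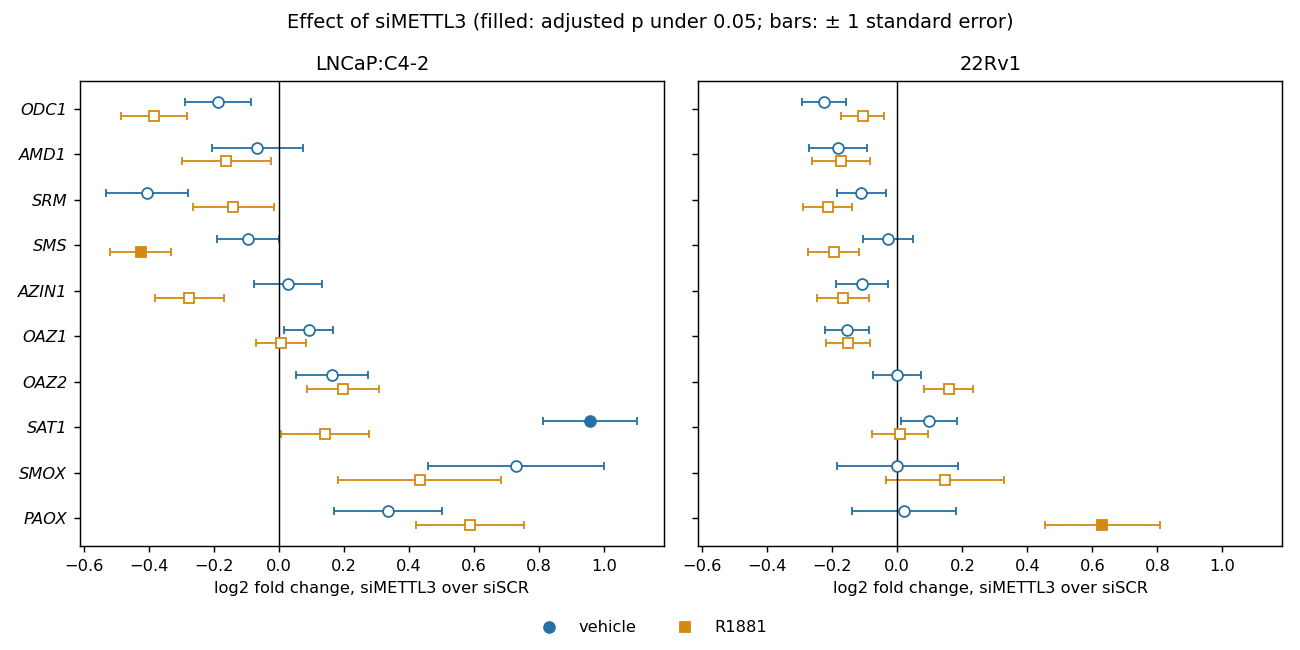
Log2 fold change of siMETTL3 over siSCR for each gene with vehicle (circles) and R1881 (squares), in LNCaP:C4-2 (left) and 22Rv1 (right); bars are ± 1 standard error and filled symbols have an adjusted p under 0.05. SAT1 with vehicle and SMS with R1881 are filled in LNCaP:C4-2, and PAOX with R1881 is filled in 22Rv1.

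Whether knockdown changed the androgen response itself was tested as the interaction of R1881 and siMETTL3. In LNCaP:C4-2, 0 of 10 members passed in edgeR and 0 in DESeq2. Of all genes, edgeR called 0.0%, with 2037 at an unadjusted p under 0.05, and DESeq2 called 45. SAT1 had the largest difference among the members, at -0.82 ± 0.20 (SE, adjusted p = 0.281) on the log2 scale, with an unadjusted p of 0.000956. Its level with vehicle was higher after knockdown while its R1881 levels overlapped, as the values above show. SMS was the other member with an unadjusted p under 0.05, at -0.33 ± 0.13 (SE, adjusted p = 0.372).

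In LNCaP:C4-2, 4 of 10 members passed once the libraries that stood apart were removed, against 9.94% of all genes. The R1881 log2 fold change was then lower with siMETTL3, with differences of -0.52 ± 0.15 (SE, adjusted p = 0.0378) for SAT1, -0.46 ± 0.10 (SE, adjusted p = 0.00728) for SMS, -0.36 ± 0.10 (SE, adjusted p = 0.031) for ODC1 and -0.34 ± 0.10 (SE, adjusted p = 0.047) for AZIN1. The AZIN1 change with R1881 was then 0.07 ± 0.08 (SE, adjusted p = 0.479) under siSCR and -0.26 under siMETTL3. In 22Rv1, 0 of 10 passed in either tool, against 0.0168% of all genes in edgeR and 4 of all 17865 genes in DESeq2. There 1 member, PAOX, had an unadjusted p under 0.05 in edgeR, at 0.61 ± 0.24 (SE, adjusted p = 0.802), against 1101 of all 17865 genes. Without the libraries that stood apart 0 passed there too, against 1.18% of all genes.

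The promoters of the members were searched for CACGTG, the E-box bound by MYC and MAX, and for a strict androgen response element, AGAACA followed by any 3 bases and its inverted repeat, each on both strands, which are identical for these palindromes. RefSeq windows (GRCh38.p14) of 250 bases before and 50 after a start site were at hand for 7 members, in 10 windows, for ODC1, AMD1, SRM, SMS, SAT1, OAZ1 and OAZ2. CACGTG was found in 2 of these genes, ODC1 and SRM, against 8.77% of all 27305 genes with a window, or 7.26% of all 35116 windows. The androgen response element in this strict form was in none of the member windows and in 1 of all windows. A match is a description of letters and not a binding site. The sequences below are shown because ODC1 and SAT1 had the largest R1881 responses in LNCaP:C4-2, and because SRM carries the motif and did not change there. Capitals mark CACGTG.
ODC1 (chr2:10447998-10448120, minus strand, in the first intron of the main transcript and running into the first exon of another): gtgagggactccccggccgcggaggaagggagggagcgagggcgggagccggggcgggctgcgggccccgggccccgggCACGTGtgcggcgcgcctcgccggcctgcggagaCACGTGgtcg
SRM (chr1:11060019-11060268, minus strand, the 250 bases before the start site): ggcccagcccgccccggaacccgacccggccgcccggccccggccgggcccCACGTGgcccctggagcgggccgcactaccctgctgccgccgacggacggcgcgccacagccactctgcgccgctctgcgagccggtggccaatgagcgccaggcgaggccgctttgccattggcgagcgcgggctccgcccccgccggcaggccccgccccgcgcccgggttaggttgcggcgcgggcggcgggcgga
SAT1 (chrX:23782923-23783172, plus strand, the 250 bases before the start site): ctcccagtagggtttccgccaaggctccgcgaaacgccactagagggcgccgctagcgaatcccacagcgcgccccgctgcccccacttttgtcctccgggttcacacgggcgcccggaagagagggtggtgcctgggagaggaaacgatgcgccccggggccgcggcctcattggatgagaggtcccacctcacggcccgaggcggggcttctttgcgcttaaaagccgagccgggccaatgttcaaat
The ODC1 stretch holds 2 E-boxes, at chr2:10448036-10448041 and chr2:10448002-10448007, downstream of the main start site of the gene. The E-box of SRM lies at chr1:11060212-11060217, 199 bases before its start site. SAT1 has no CACGTG in its window.

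The genes whose level followed a member most closely across the 24 libraries, after subtracting the mean of each line, are given as a description of libraries that share R1881 as their main contrast. Among 8941 genes searched, those most like ODC1 included ACSL3 (Pearson r = 0.968), PAK1IP1 (0.963), PRDX6 (0.963) and KCNMA1 (0.960). For AMD1 they were YOD1 (0.976), NRDC (0.971), MEAF6 (0.966), EDEM3 (0.966) and SPG21 (0.962). For SAT1 they were FDFT1 (0.980), TSKU (0.978), INSIG1 (0.975), MLPH (0.975) and CAMKK2 (0.968). For SMOX they were ALDOA (0.941), CLK3 (0.922), HSD11B1L (0.914), PHF1 (0.896) and TMEM214 (0.894). Within the pathway, ODC1 and AMD1 had the highest r, at 0.883, and AZIN1 and PAOX the lowest, at -0.73.

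Genes that border the pathway were followed in 5 lists with 35 genes. With R1881 under siSCR in LNCaP:C4-2, 4 rose and 4 fell of 31 tested, a share near the 24.8% of all genes called. APIP had the largest absolute log2 fold change of these 8. It is an enzyme of the salvage of methylthioadenosine, the by-product of spermidine and spermine synthesis, and stood at 15.4, 12.6 and 17.4 CPM with vehicle and 35.7, 29.4 and 30.3 CPM with R1881, a log2 fold change of 1.06 ± 0.13 (SE, adjusted p = 2.29e-05). In the methionine cycle list 3 of 11 rose and 2 fell. AHCY rose by 0.39 ± 0.11 (SE, adjusted p = 0.0166), and MAT2A, which makes S-adenosylmethionine, had a log2 fold change of -0.45 ± 0.12 (SE, adjusted p = 0.0148). OAT, which links ornithine to proline and glutamate, rose by 0.53 ± 0.09 (SE, adjusted p = 0.000657) on the log2 scale, 1 of 5 tested in the ornithine list. Of 7 tested transporters, SLC18B1, at -0.48, and ATP13A2, at -0.40, fell. The called genes all belonged to these 3 lists, and none to acetylpolyamine and diamine breakdown or to hypusination of EIF5A, the modification that uses spermidine.

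With siMETTL3 in LNCaP:C4-2, 3 of the 31 rose and 2 fell with R1881, near the 16.6% of all genes called. APIP rose by 0.73, AHCY by 0.64 and OAT by 0.33 on the log2 scale, while SLC18B1 had a log2 fold change of -0.51. AOC1, the diamine oxidase, also fell, but it had between 2 and 18 counts in these libraries.

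In 22Rv1, 8 of 30 tested rose and 6 fell with R1881 under siSCR, and 6 rose and 6 fell under siMETTL3, where 33% and 33.1% of all genes were called. APIP rose here too, by 0.59 ± 0.10 (SE, adjusted p = 8.65e-05) and 0.73 ± 0.10 (SE, adjusted p = 6.52e-06) on the log2 scale. Falls of more than 1.5-fold under both siRNAs were seen in 4 genes. MAT1A changed by -1.14 and -1.57 on the log2 scale, AGMAT by -1.65 and -1.12, AOC1, at 16.4, 17.8 and 14.01 CPM with siSCR vehicle and 7.96, 8.51 and 8.66 CPM with R1881, by -0.95 and -0.94, and the transporter SLC22A3 by -0.68 and -0.67. ARG2, a mitochondrial arginase that makes ornithine, rose by 0.59 and 0.87 on the log2 scale. OAT went from 129, 134 and 152 CPM to 109, 111 and 111 CPM under siSCR, a log2 fold change of -0.33 ± 0.07 (SE, adjusted p = 0.000866).

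The R1881 response differed between the lines for 4 of 32 tested list genes, against 16.8% of all genes. OAT, by -0.87 ± 0.11 (SE, adjusted p = 2.25e-06), AHCY, by -0.57 ± 0.14 (SE, adjusted p = 0.00491), and ADI1, by -0.50 ± 0.11 (SE, adjusted p = 0.00236), were lower on the log2 scale, and MAT2A, by 0.66 ± 0.14 (SE, adjusted p = 0.00173), was higher in 22Rv1 relative to LNCaP:C4-2. The levels differed for 22 of 32 with vehicle, 14 higher and 8 lower in 22Rv1, and for 21 with R1881, 14 higher and 7 lower, a smaller share in each case than the 73.9% and 75% of all genes that differed.

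Knockdown changed none of the 31 list genes in edgeR in LNCaP:C4-2, with vehicle or with R1881. DESeq2 called 2 with vehicle and 4 with R1881, against 661 and 1449 of all 16435 genes, and 9 and 8 had an unadjusted p under 0.05 in edgeR, against 2636 and 4702 of all genes. In 22Rv1 with vehicle, 1 of 30 fell, against 0.56% of all genes called. It was MAT2A, at -0.33 ± 0.07 (SE, adjusted p = 0.028). With R1881 in 22Rv1, 5 rose and 5 fell, against 16.2% of all genes called. HDAC10, an acetylpolyamine deacetylase, rose by 0.75 ± 0.21 (SE, adjusted p = 0.0214) and SAT2, a relative of SAT1, by 0.63 ± 0.10 (SE, adjusted p = 0.000634) on the log2 scale. EIF5A2, at -0.67, and EIF5AL1 fell and EIF5A, at 0.22, rose. EIF5AL1 is nearly identical to EIF5A, so its counts are uncertain.

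Reads were counted without use of strand, and part of some members is shared with other genes. ODC1, AMD1, SRM, SMS, SMOX and SAT1 share no exonic base with another gene in the annotation. OAZ1 shares 6.87% of its exonic bases, OAZ2 7.22%, PAOX 6.94% and AZIN1 5.04%. Processed copies listed under the same symbol with a P suffix exist for AMD1 (4), SRM (3), SMS (1) and OAZ1 (1), and reads placed on a copy would not be counted for the gene.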

How the data were processed

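The deposited files hold raw counts per gene, 1 file per library. The authors trimmed reads with Trim Galore and cutadapt, checked them with FastQC, used STAR on GRCh38 and then featureCounts for read pairs (1.5.0 per the file headers) on Ensembl 83 genes, with no strand option. Other versions are not given in the sources used here. RNA was extracted with on-column DNase treatment.

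Counts were tested with edgeR 4.0.16 (R 4.3.3) by glmQLFit and glmQLFTest with TMM factors, after filterByExpr (minimum count 10, minimum total 15). R1881 and knockdown effects and their interaction were fitted on the 12 libraries of a line, and comparisons between lines on all 24. P-values were adjusted by Benjamini-Hochberg over all genes tested, with a threshold of 0.05. A second rule also asked for 1.5-fold. Each standard error was taken as the size of the log2 fold change over the root of its F statistic. Levels are CPM with TMM factors over 24 libraries. The script was tested on simulated counts. Alternatives were DESeq2 1.42.0, RLE factors, total counts alone, no filter, at least 10 counts in every library, a replicate block, only the libraries compared, each library left out, and the libraries that stood apart removed. Pairing numbers were checked on log2 CPM with 0.5 added.

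The 10 members and the 5 lists were chosen with earlier results of these data known. Named genes were all members, METTL3, FKBP5, up to 4 called genes per list and comparison with the largest absolute log2 fold change, and the 5 genes most like ODC1, AMD1, SAT1 and SMOX among genes with a mean of at least 10 CPM in each line. A few genes that these rules or the marker lists name are not reported here. Python 3.11.15 was used for tables and figures. Of the members, SMOX (39 to 143 counts in a library) and PAOX (50 to 259) had the fewest counts, so counting error weighs most on their values.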

Additional observations from a re-analysis of the deposited data

Results flagged for a closer look

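The R1881 response under siSCR differed between 22Rv1 and LNCaP:C4-2 in the test of the difference itself for 4 members and 4 genes of the neighbouring lists. As log2 differences, 22Rv1 minus LNCaP:C4-2, these were -2.86 for SAT1, -1.12 for SMS, -0.94 for ODC1, -0.75 for PAOX, -0.87 for OAT, 0.66 for MAT2A, -0.57 for AHCY and -0.50 for ADI1. SMS, OAT and MAT2A each changed in opposite directions in the 2 lines. The effect of siMETTL3 with vehicle differed for SAT1, by -0.88. The call of this SAT1 effect and that of the PAOX difference were lost in some fits, as given above. Single libraries were not tested as outliers, since each group has 3.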

How the results depend on the processing

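Member counts are out of 10. Shares of all genes called under the 1.5-fold rule and without the libraries that stood apart are given above. For the other settings, apart from DESeq2, they are not given, so those counts are not results about the members. Asking for 1.5-fold as well gave 3 with R1881 under siMETTL3 in LNCaP:C4-2, 0 for knockdown with R1881 there, and 1 (siSCR) and 0 (siMETTL3) with R1881 in 22Rv1. In LNCaP:C4-2, knockdown with vehicle gave 2 with no filter, and knockdown with R1881 gave 0 with total counts alone, 3 with no filter, 3 with DESeq2 and 3 with only the libraries compared, while the interaction gave 1 with no filter. For knockdown with R1881 there, DESeq2 called 1449 of all 16435 genes, against 154 in edgeR. With only the libraries compared, knockdown with R1881 in 22Rv1 gave 7 and the difference between lines in the knockdown effect with vehicle gave 0. Without the libraries that stood apart, knockdown with R1881 gave 7 in each line, the interaction in LNCaP:C4-2 gave 4, R1881 under siMETTL3 in 22Rv1 gave 5, and the difference in the knockdown effect with R1881 gave 2. Fewer libraries and a smaller spread are part of that setting by construction. For the others the cause was not tested.

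Leaving out 1 library at a time, the counts ranged from 0 to 1 for knockdown with vehicle in each line, 0 to 6 (LNCaP:C4-2) and 0 to 1 (22Rv1) for knockdown with R1881, and 0 to 1 for the difference between lines in the knockdown effect with vehicle. The R1881 counts ranged from 4 to 5 under each siRNA in LNCaP:C4-2, and in 22Rv1 from 4 to 6 with siSCR and 3 to 3 with siMETTL3. Shares of all genes called in these fits are not given, so the counts describe only how the calls moved. In LNCaP:C4-2 the knockdown count with vehicle fell to 0 without replicate 1 or 3 of siSCR vehicle or replicate 2 of siMETTL3 vehicle. With R1881 it rose to 6 without replicate 1 of siSCR R1881 and fell to 0 without any of the other 5. In 22Rv1 the knockdown count with vehicle rose to 1 (ODC1) without replicate 1 of siSCR vehicle. With R1881 it fell to 0 without replicate 1 or 3 of siSCR R1881 or replicate 1 or 2 of siMETTL3 R1881. The difference in the SAT1 knockdown effect was lost without replicate 1 or 3 of siSCR vehicle or replicate 2 of siMETTL3 vehicle in LNCaP:C4-2, or replicate 2 of either vehicle group in 22Rv1.

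Of 1169 alternative values for the 77 member results with an unadjusted p under 0.05 or a call in any setting, 1063 stayed on their side of the threshold, 56 lost the call, 50 gained it and 0 changed sign. Of 1211 alternative values for the other 73 member results, 122 changed sign, and the largest absolute log2 fold change among these results was 0.30. Of 1373 alternative values for called list genes, 1259 kept the call and 0 changed sign. The 77 member results and the list genes were picked by their p-value or call, and the fits share libraries. A change of sign among them was therefore unlikely from the start.

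Same-numbered libraries did not deviate together: the mean correlation was -0.02 in LNCaP:C4-2 (-0.42 to 0.26) and -0.01 in 22Rv1 (-0.29 to 0.21), so the numbers were not treated as a pairing. With a replicate block, knockdown with R1881 in LNCaP:C4-2 gave 0 members (SMS, adjusted p = 0.0915), and the fall of AZIN1 with R1881 under siMETTL3 lost its call (adjusted p = 0.0568). Between the lines this fit is not a comparison adjusted for the block. Its block terms were set within each line, so the contrast is the fitted difference at replicate 1. With vehicle AMD1 passed there (adjusted p = 0.0393) and SMOX did not (adjusted p = 0.126), and no conclusion about a block is drawn from these calls. No other member's call changed in the fits with these terms.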
